A study of Mus musculus with 40 samples.

Results

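MicroRNAs were compared between brown fat and gastrocnemius muscle in the RNA that streptavidin pulled down from each tissue (the IP). The pull-down is meant to enrich RNA that carries a thiol label. The comparison takes 5 brown fat IP libraries and 5 muscle IP libraries, 10 of the 40 libraries of the series, chosen by their labels. All 10 were sequenced in the same pool, pool 2. All mice were UCP1;UPRT males aged 8 to 12 weeks, from a cross of Tg(CAG-GFP,-Uprt)985Cdoe/J with Tg(Ucp1-cre)1Evdr/J, and all had 4-thiouracil (4TU) at 50 mg/kg by intraperitoneal injection, 4 times at intervals of 48 h. The brown fat IPs came from mice 2, 4, 6, 7 and 10 and the muscle IPs from mice 1, 2, 3, 8 and 9, so mouse 2 is in both groups and each library is otherwise a mouse of its own. Total small RNA of the same tissues (the inputs, 5 libraries each, pool 1) is set beside the IPs. The muscle inputs came from the same 5 mice as the muscle IPs, and the brown fat inputs from mice 2, 4, 6, 7 and 8, of which 4 also gave a brown fat IP. The libraries used here hold no group without 4TU and none without Cre, so no level is given for RNA that passes the pull-down unlabelled, and the genotype of single mice is not given in the labels.

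MicroRNAs are short RNAs cut from a hairpin, of which 1 arm (the guide) is usually kept in an Argonaute protein and the other (the passenger) is usually lost. The seed, bases 2 to 8 of the guide, sets most of which messenger RNAs it represses, so guides with a shared seed form a family. In this labelling design the enzyme UPRT, made where Ucp1-driven Cre is active, attaches 4TU to a ribose so that newly made RNA carries thiol groups. Ucp1 marks brown adipocytes, which burn fat to give heat. Skeletal muscle fibres are known for the myomiRs miR-1, miR-133 and miR-206. The series title concerns miRNAs that brown fat secretes to other organs. The comparison here shows how the pulled-down RNA of brown fat and of 1 remote tissue differ.

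The mature sequences below are those of the miRNAs on which the results turn, from RefSeq (GRCm38.p6, the assembly of mm10), 5′ to 3′ with the seed in capitals.
miR-182-5p: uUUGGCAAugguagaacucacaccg
miR-183-5p: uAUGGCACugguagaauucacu
miR-203-3p: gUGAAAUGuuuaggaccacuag
miR-103-3p: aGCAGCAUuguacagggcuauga
miR-107-3p: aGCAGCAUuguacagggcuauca
miR-30a-5p: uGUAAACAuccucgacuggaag
miR-30c-5p: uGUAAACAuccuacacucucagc
miR-30e-5p: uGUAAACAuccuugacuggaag
miR-30a-3p: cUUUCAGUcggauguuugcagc
miR-206-3p: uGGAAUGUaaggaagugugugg
miR-196a-5p: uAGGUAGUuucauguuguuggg
miR-196b-5p: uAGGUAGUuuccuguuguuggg
let-7a-5p: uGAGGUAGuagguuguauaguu
let-7g-5p: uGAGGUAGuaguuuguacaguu
let-7d-5p: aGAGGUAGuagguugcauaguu
let-7e-5p: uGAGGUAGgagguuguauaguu
The miR-182 and miR-183 guides lie on the minus strand at chr6:30165962-30165986 and chr6:30169711-30169732, with no host gene on that strand in the GENCODE annotation, and miR-203-3p lies at chr12:112130927-112130948 (plus), also without one. The miR-103-3p guide has copies in introns of Pank2 (chr2:131288103-131288125, plus) and Pank3 (chr11:35782447-35782469, plus), and miR-107-3p lies in an intron of Pank1 (chr19:34820700-34820722, minus). From miR-103-3p to miR-107-3p, counting from 1 at the 5′ end, the only change is G22C. The miR-30a arms lie at chr1:23272274-23272295 and chr1:23272315-23272336 (plus, no host gene), and miR-30e-5p lies in an intron of Nfyc (chr4:120772660-120772681, minus) beside a copy of miR-30c-5p at chr4:120769584-120769606. From miR-30a-5p to miR-30e-5p the change is C13U. Of the muscle-high set, miR-206-3p lies at chr1:20679055-20679076 (plus) in an exon of the long noncoding RNA gene Gm28653. The miR-196a-5p guide has copies at chr11:96265187-96265208 (plus, no host gene) and in an intron of Hoxc5 at chr15:102973365-102973386 (plus), and miR-196b-5p lies in an exon of Hoxa9 at chr6:52230129-52230150 (minus), with the change A12C from miR-196a-5p. The let-7 guides differ from let-7a-5p by U9G in let-7e-5p, by G12U and U18C in let-7g-5p, and by U1A and U16C in let-7d-5p.

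Total counts ran from 210554 to 816971 in the brown fat IPs (median 303403, with 413 miRNAs detected in the median library) and from 109941 to 921277 in the muscle IPs (median 349281, with 265 detected). The inputs held 968886 to 2121912 counts in brown fat and 3750389 to 4726588 in muscle. Muscle IP library 5 stood apart. It was the shallowest, and it held 10 of the 15 values that lay far from those of the other 4 libraries of the group, out of 110 groups of values looked at. Brown fat IP library 2 also differed, with the lowest share of myomiRs in its group (6.66% of counts against 18.4% to 33.6%). Rank correlation of levels was 0.894 to 0.968 among brown fat IPs, 0.916 to 0.97 among muscle IPs and 0.648 to 0.752 between the groups.

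The muscle IPs were mostly a single miRNA. miR-1a-3p, which supports the muscle fibre programme, made up 579882, 571842, 591352, 583539 and 453425 counts per 1000000 counted miRNA reads (CPM) in muscle IP libraries 1 to 5, and 213742, 48057, 211257, 238267 and 130987 CPM in the brown fat IPs. The groups did not overlap. The entry miR-1b-5p shares these reads in a fixed ratio and is not separate evidence. The brown fat IPs were shared between more miRNAs: the 9 let-7 guides together made up 41% to 54.8% of counts there and 14.9% to 26.4% in the muscle IPs, and miR-378a-3p, made from an intron of the mitochondrial coactivator gene Ppargc1b, was at 78658 to 173426 CPM against 3667 to 6294 CPM.

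Because 1 miRNA fills so much of the muscle libraries, the scaling sets the zero of every fold change. The results were therefore read side by side with 2 scalings, the trimmed mean of M values (TMM), which centres on the bulk of miRNAs, and total count. The median log2 fold change of brown fat IP over muscle IP over the 162 tested miRNAs was 0.35 with TMM and 2.45 with total count, and the median shift between the scalings was 2.10. With TMM, edgeR's quasi-likelihood test called 60 of 162 miRNAs (37%) higher in the brown fat IP and 41 (25.3%) lower, 62.3% in all. With total count it called 128 (79%) higher and 13 (8.02%) lower. All 60 TMM calls above zero were also called with total count, and 13 miRNAs were lower with both. A further 10 were called lower with TMM and higher with total count, 18 were lower with TMM alone, 58 were higher with total count alone and 3 were called with neither. The statements below name a direction without a qualifier only for the 60 and the 13. In CPM, 108 of the 162 (66.7%) did not overlap between the groups. A miRNA could pass the filter for testing through its counts in 1 group alone. One that was near absent from the other group could then hardly be called the other way. The shares of lists called, given below, are therefore a description only.

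**Figure D1:**
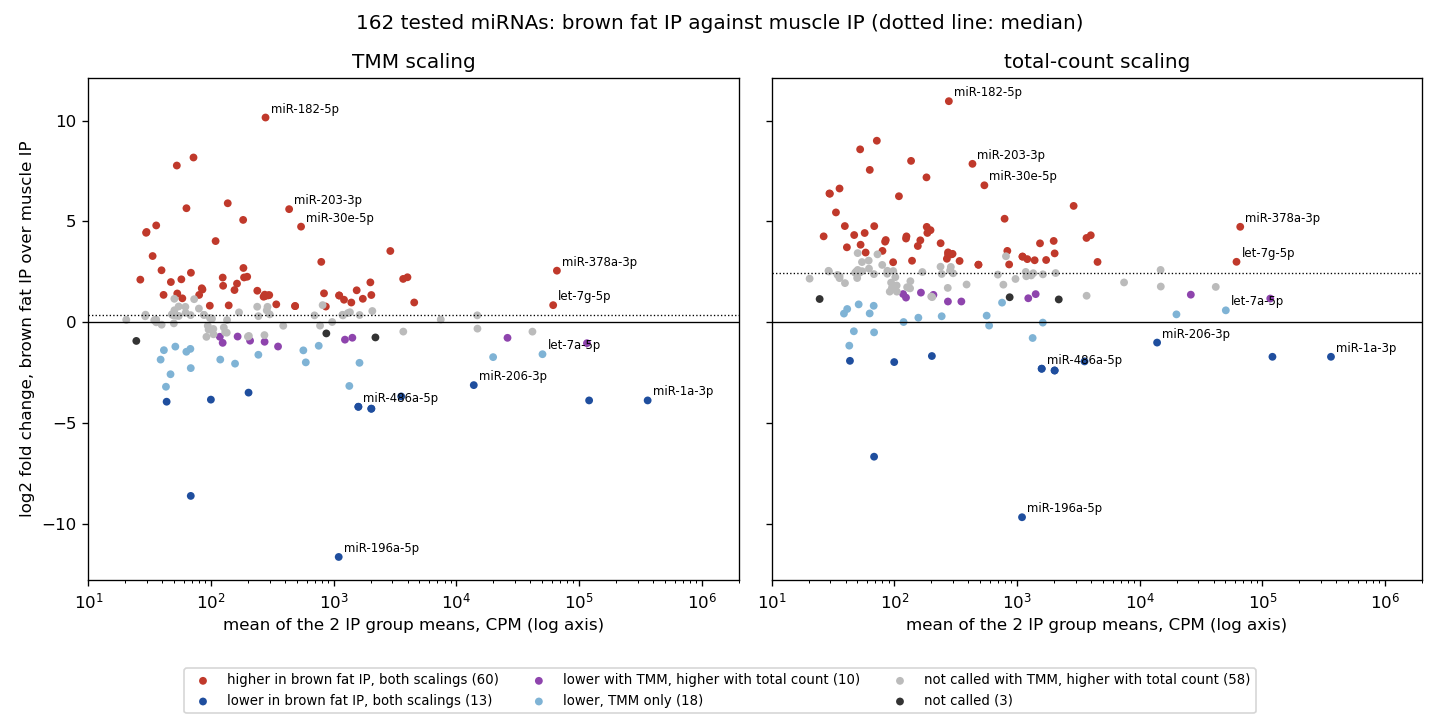
Log2 fold change of brown fat IP over muscle IP (y axis) against mean level in CPM (log x axis) for the 162 tested miRNAs, with TMM (left) and total-count (right) scaling; colours give the call with both scalings and the dotted line is the median. The cloud moves up as a whole from a median of 0.35 to 2.45, while the 13 dark blue miRNAs stay below zero in both panels.

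Higher in muscle with both scalings were the myomiRs, the miR-196 pair, the miR-486 entries, miR-149-5p and miR-181a-2-3p. All 5 tested myomiR entries were lower in the brown fat IP, with a median log2 fold change of -3.89 (TMM) and -1.72 (total count), beside 0.35 and 2.45 over all tested miRNAs. The test gave miR-1a-3p a log2 fold change of -3.89 with TMM (SE 0.54, adjusted p = 5.18e-06) and -1.72 with total count. miR-206-3p, a myomiR of regenerating and slow fibres, was at 9294, 2356, 8988, 16476 and 8704 CPM in the brown fat IPs and at 17249, 21518, 21432, 13064 and 19474 CPM in the muscle IPs. A single brown fat library, the fourth, lay above the lowest muscle library, so the groups overlapped, and the log2 fold change was -3.13 (SE 0.52) with TMM and -1.02 with total count (adjusted p = 0.0292). miR-133a-3p, which restrains smooth muscle genes in muscle fibres, was at 1615, 205, 2620, 1961 and 881 CPM in brown fat and at 1356, 2544, 4127, 7109 and 13080 CPM in muscle. Its groups overlapped too, and its log2 fold change was -3.69 (SE 0.58). miR-133b-3p, made from the same locus as miR-206, was lower by -3.95 (SE 0.57).

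The myomiRs were also present in the brown fat libraries at levels that differed from mouse to mouse. The whole list took 29.6%, 6.66%, 29.3%, 33.6% and 18.4% of counts in brown fat IP libraries 1 to 5, and 9.05% to 38.7% in the brown fat inputs, against 63.7% to 81.4% in the muscle IPs. Whether fibres of nearby muscle were in the dissected brown fat was not tested. miR-499-5p, another myomiR, had a mean of 22.4 CPM in the brown fat IPs and no count in the muscle IPs, and did not pass the filter. In bulk tissue, fewer cells of a type and less of the RNA in each cell cannot be told apart.

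miR-196a-5p and miR-196b-5p, made from the Hox gene clusters that pattern the body axis, gave the widest contrast in the direction of muscle. miR-196a-5p had 1390, 1629, 482, 688 and 424 counts in the muscle IPs (1388 to 3857 CPM) and 2, 0, 1, 0 and 2 counts in the brown fat IPs. Its log2 fold change was -11.66 (SE 0.54, adjusted p = 6.48e-13) with TMM and -9.69 with total count. miR-196b-5p had 80, 100, 29, 56 and 23 counts in muscle and 0, 0, 1, 0 and 1 in brown fat, a ratio of 633 on the TMM scale (exact 95% interval 174 to 5253) and 120 with total count. The inputs were as far apart for miR-196a-5p, with 1 count in all 5 brown fat inputs and 551 to 1073 in each muscle input. miR-196a-5p stands in the brown fat list used here, and with at most 2 counts a library it was close to absent from the brown fat IPs. Other Hox cluster miRNAs did not follow. miR-10a-5p was at 4882 to 13188 CPM in the brown fat IPs and at 143 to 810 CPM in the muscle IPs (log2 fold change 2.14, SE 0.33), while miR-10b-5p, which differs from it by U12A, was not called with TMM (0.35, SE 0.36) and was higher with total count (2.37). The ratio of miR-10a-5p to miR-10b-5p, which no scaling touches, was 2.35 to 3.3 in the brown fat IPs and at most 1 in the muscle IPs.

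The miR-486 entries, from a locus in the red cell and muscle gene Ank1, were higher in muscle in all 5 libraries. miR-486a-5p was at 1312, 1298, 1506, 2548 and 6567 CPM in the muscle IPs and 318 to 788 CPM in the brown fat IPs, with a log2 fold change of -4.20 (SE 0.35) with TMM and -2.31 with total count. All 4 tested members of the red blood cell list are miR-486 entries that share reads, and the erythrocyte miRNA miR-451a did not pass the filter, at a mean of 2.6 CPM in brown fat and 0.217 CPM in muscle. miR-149-5p, in an intron of Gpc1, was lower in brown fat by -3.50 (SE 0.41) with TMM and -1.68 with total count, and its groups overlapped at 60 to 129 CPM in brown fat and 91 to 791 CPM in muscle. miR-122-5p, the hepatocyte miRNA, was lower with TMM alone (-3.17, SE 0.65), with 639 to 1299 CPM in the brown fat IPs and 3981, 316, 397, 3106 and 682 CPM in the muscle IPs. Muscle libraries 1 and 4 were the high ones.

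**Figure D2:**
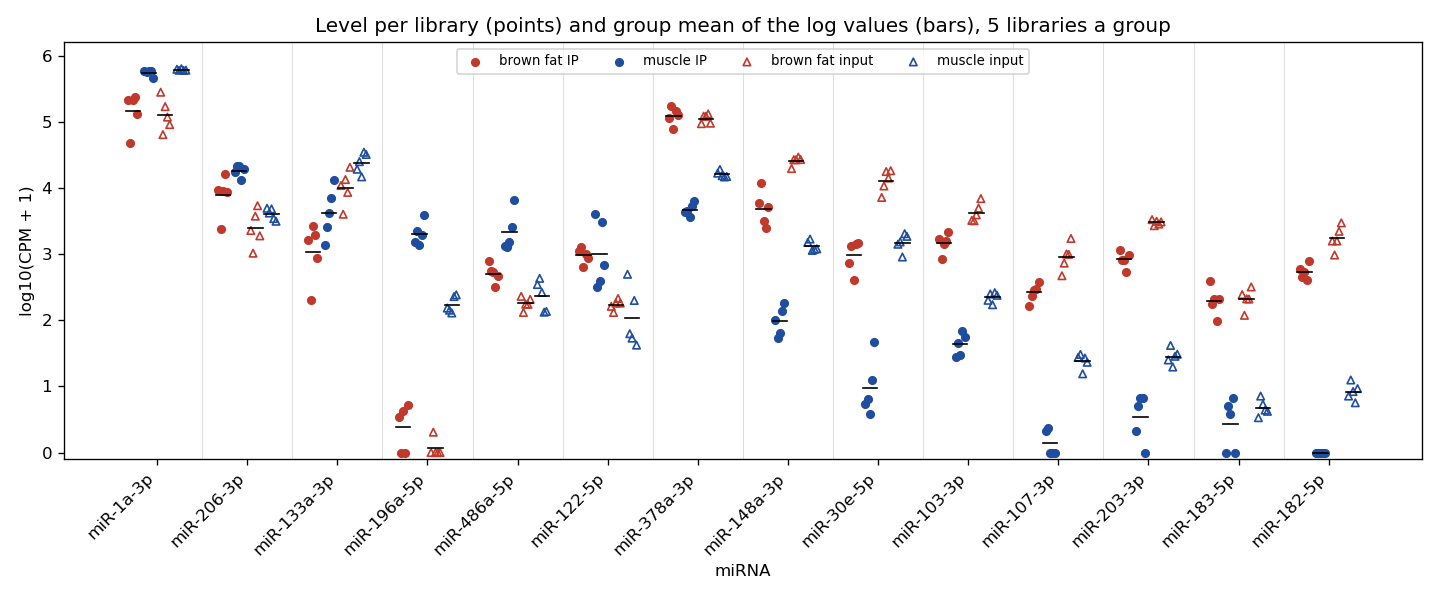
Level of 14 named miRNAs as log10(CPM + 1) in each of 5 brown fat IP (filled red), 5 muscle IP (filled blue), brown fat input (open red) and muscle input (open blue) libraries; bars are means of the plotted values. The miRNAs on the left are higher in muscle, those on the right in brown fat, and miR-182-5p has no count in any muscle IP.

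Among miRNAs higher in the brown fat IP, wide contrasts were found for miR-182/183, miR-203, miR-455, miR-708, miR-107 and miR-129-5p, the last given with the brain list below. miR-182-5p, of a cluster known from sensory and epithelial cells, had 477, 109, 163, 86 and 371 counts in the brown fat IPs (408 to 795 CPM) and 0 in each muscle IP. Taking 3 counts over the muscle group as the floor, it was at least 91.4-fold higher on the TMM scale and at least 484-fold higher with total count. Its neighbour miR-183-5p had 20 to 318 counts in brown fat and 0, 3, 1, 2 and 0 in muscle (log2 fold change 4.02, SE 0.61). miR-203-3p, which promotes differentiation of skin cells, was at 1169, 810, 817, 541 and 975 CPM against 1.09, 4.14, 5.76, 5.73 and 0 CPM (5.61, SE 0.46). The other markers of epithelium were scarce: miR-200c-3p had a mean of 2.61 CPM in the brown fat IPs, and miR-203-3p was the only member of that list tested. miR-455-3p, a brown adipogenesis miRNA in an intron of Col27a1, was at 167 to 579 CPM against 0 to 9.1 CPM (5.07, SE 0.61). Its other arm, miR-455-5p, had 254 counts over the brown fat IPs and 0 over the muscle IPs, at least 19.3-fold higher with TMM. miR-708-5p had 106, 21, 23, 21 and 62 counts in the brown fat IPs and 0 in each muscle IP, at least 17.7-fold higher with TMM.

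miR-103-3p and miR-107-3p, which dampen insulin signalling in liver and fat, were both higher in brown fat. miR-103-3p was at 1705, 831, 1430, 1601 and 2124 CPM in the brown fat IPs and 27.1 to 68.7 CPM in the muscle IPs (log2 fold change 2.99, SE 0.39). miR-107-3p had 133, 56, 88, 63 and 177 counts against 1, 1, 0, 0 and 0, a ratio of 58.8 on the TMM scale (exact 95% interval 16.2 to 487) and 311 with total count. The pair shares its seed and all bases but 1.

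miR-378a-3p, which acts on energy use in muscle and fat, was higher in brown fat by 2.55 (SE 0.34, adjusted p = 3.86e-06) with TMM and 4.73 with total count. Its libraries held 115519, 173426, 78658, 143569 and 124512 CPM in brown fat and 4261, 4457, 3667, 5268 and 6294 CPM in muscle. The opposite arm, miR-378a-5p, gave 2.69 (SE 0.44) at 241 to 484 CPM against 4.34 to 45.5 CPM. miR-148a-3p, a liver and adipocyte miRNA that targets regulators of lipid uptake, was at 5817, 11805, 3151, 2508 and 5112 CPM in brown fat and 52.4 to 182 CPM in muscle (3.53, SE 0.37). The 3 tested guides with its seed, miR-148a-3p, miR-148b-3p and miR-152-3p, were all higher, at 1.35 to 3.53. miR-30e-5p was at 737, 1333, 409, 1406 and 1462 CPM against 4.34, 5.52, 2.88, 11.5 and 45.5 CPM (4.74, SE 0.50).

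Of the brown fat list, 23 of 38 members were tested. With TMM 15 were higher and 4 lower, beside 37% and 25.3% of all tested miRNAs. With total count 19 were higher and 1 lower, with the share of higher ones near the 79% of all tested miRNAs. The median log2 fold change of the list was 1.99 (TMM), beside 0.35 over all tested miRNAs. The list took 9.26% to 19.1% of counts in the brown fat IPs and 0.626% to 1.34% in the muscle IPs, with miR-378a-3p the largest part in each brown fat IP. miR-193b-3p, needed for brown adipocyte differentiation in culture, had 34, 3, 12, 37 and 20 counts in the brown fat IPs and 1, 0, 0, 2 and 2 in the muscle IPs and did not pass the filter. Of 11 tested miRNAs known to hold back brown fat, 3 were higher and 2 lower with TMM and 9 were higher with total count, shares near or below those over all tested miRNAs (37%, 25.3% and 79%). miR-27b-3p, one of them, was not called with TMM at 0.45 (SE 0.40).

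Arms of some miR-30 hairpins differed. With TMM, 7 of 10 tested miR-30 entries were higher in brown fat and 2 lower, beside 37% and 25.3% of all tested miRNAs, and with total count all 10 were higher, beside 79%. The 7 include miR-30e-3p and miR-30f, which share reads. They also include miR-30d-5p, whose TMM call was lost in 4 of the fits with a library left out (adjusted p up to 0.0944 by edgeR). The guides miR-30a-5p (2.23, SE 0.37) and miR-30c-5p (1.97, SE 0.38) were higher, while their passengers miR-30a-3p (-0.87, SE 0.30) and miR-30c-2-3p (-1.03, SE 0.31) were lower with TMM and higher with total count (1.18 and 1.22). Not every 3p arm did so: miR-30e-3p was higher with both scalings (1.36, SE 0.35, with TMM), and miR-30e was not among the hairpins whose ratio was tested. The ratio of the arms of a hairpin is free of scaling. For miR-30a the log2 ratio of 5p to 3p counts was 1.68, 2.33, 1.03, 2.64 and 2.69 in the brown fat IPs and -0.79, -1.26, -0.93, -0.85 and -1.07 in the muscle IPs. The guide thus outnumbered the passenger in every brown fat IP and in no muscle IP. In the inputs it outnumbered it in both tissues, at 4.76 ± 0.30 (SD, n = 5) in brown fat and 4.64 ± 0.28 (SD, n = 5) in muscle. For miR-30c the log2 ratio of 5p to the miR-30c-2-3p arm was 4.36 ± 0.70 (SD, n = 5) in the brown fat IPs and 1.36 ± 0.93 (SD, n = 5) in the muscle IPs, with inputs at 7.60 and 7.30.

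The arms of 26 pairs could be compared, with let-7f-5p paired with both let-7f-1-3p and let-7f-2-3p. The ratio differed in 7 pairs between the IPs. Each had the smallest p that an exact two-sided permutation test of 5 against 5 allows (p = 0.00794, adjusted over the 26 to 0.0295). The ratio was higher in brown fat for miR-30a, miR-30c, miR-181a and miR-1843a, and lower for miR-423, miR-365-2 and let-7a with its let-7a-1-3p arm. The entry let-7a-1-3p shares its reads with let-7c-2-3p, so the let-7a ratio rests on an arm that cannot be assigned to let-7a alone. miR-30c-5p and miR-181a-5p lie at more than a single locus, while miR-30c-2-3p and miR-181a-2-3p are arms of a single locus. By their names, the same holds for miR-365-3p and miR-365-2-5p. In these ratios the use of a locus and the use of an arm cannot be told apart. For miR-181a the log2 ratio of 5p to miR-181a-2-3p was 2.97 ± 0.72 (SD, n = 5) in brown fat and -0.32 ± 0.23 (SD, n = 5) in muscle. The inputs differed in the same direction there, at 5.45 and 2.97. For miR-423 the ratio of 5p to 3p was 0.99 ± 0.51 (SD, n = 5) in brown fat and 2.82 ± 1.06 (SD, n = 5) in muscle, while in both inputs the 3p arm was the larger (-1.83 and -2.35). Leaving out single libraries took miR-423, miR-365-2 and let-7a to an adjusted p of up to 0.059 in an exact permutation test. In the same test miR-30a, miR-30c, miR-181a and miR-1843a stayed at an adjusted p of 0.0413 or below.

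**Figure D3:**
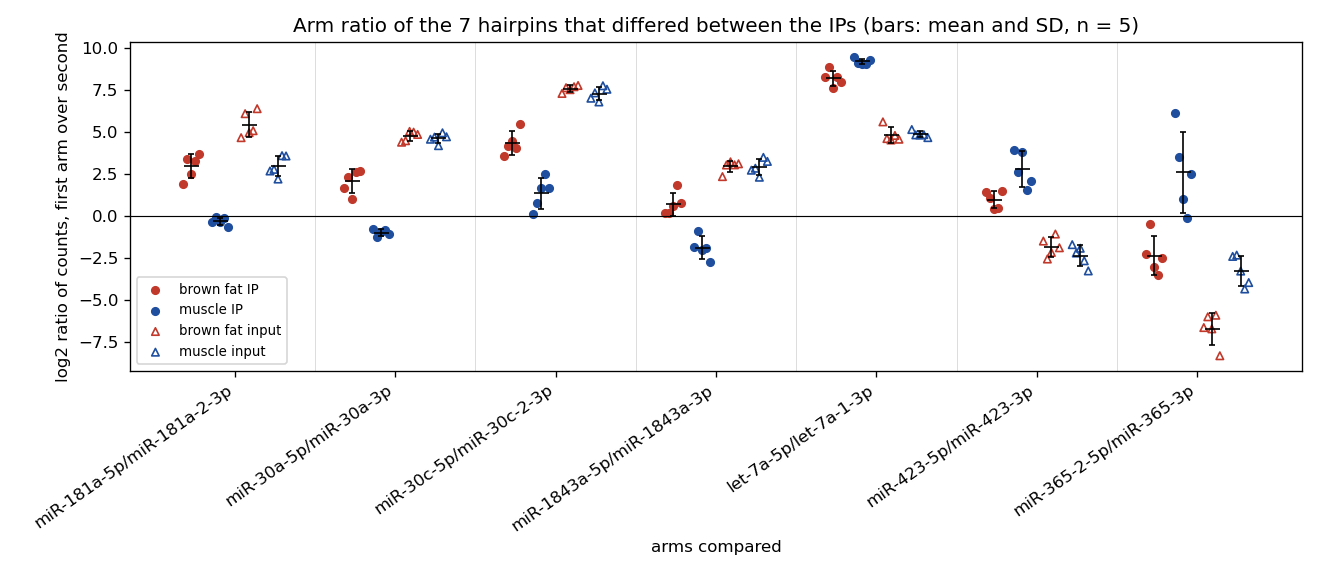
Log2 ratio of the counts of 2 arms (y axis) for the 7 arm pairs whose ratio differed between brown fat IP and muscle IP. Each library is a point, and bars are mean and SD (n = 5 a group). For miR-30a the brown fat IPs sit at 1.03 to 2.69 and the muscle IPs below zero, while both inputs are near 4.7.

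The let-7 guides, which hold back growth and are among the most common miRNAs of adult tissue, share the seed GAGGUAG but did not move together. With TMM, let-7g-5p was called higher (0.84, SE 0.33, adjusted p = 0.0347) and 6 of the 9 lower, among them let-7e-5p (-2.02, SE 0.35), let-7d-5p (-1.74, SE 0.31), let-7a-5p (-1.59, SE 0.31) and let-7f-5p (-1.05, SE 0.34). With total count 6 of the 9 were higher and none lower, and let-7a-5p (0.58), let-7d-5p (0.38) and let-7e-5p (-0.03) were not called. Over all tested miRNAs 37% were higher and 25.3% lower with TMM, and 79% were higher and 8.02% lower with total count. The let-7g-5p call with TMM was lost when any of 9 of the 10 libraries was left out (log2 fold change 0.60 to 0.92). The share of each guide among the 9 is free of scaling. let-7g-5p held 20.4%, 17.8%, 28.3%, 20.1% and 26.2% of let-7 counts in the brown fat IPs and 7.49%, 6.59%, 7.24%, 8.77% and 7.21% in the muscle IPs. let-7a-5p held 10.2% to 17.4% in brown fat and 19.3% to 25.1% in muscle. let-7d-5p held 3.03% to 5.5% against 7.52% to 11.6%, and let-7e-5p 0.23% to 0.45% against 0.561% to 1.3%. These 4 shares did not overlap between the groups (exact two-sided permutation test, p = 0.00794, adjusted over the 9 shares to 0.0179), and the shares of the other 5 guides were not called. The 9 shares of a library add up to a fixed whole, so a larger let-7g-5p share lowers the sum of the rest. The 4 calls are thus not independent of each other. The let-7e-5p share was no longer called when any 1 of the 5 brown fat IPs was left out (adjusted p = 0.0536, exact permutation test). In the inputs let-7g-5p was again the larger share in brown fat (33.7% ± 1.45 against 20.6% ± 0.78, SD, n = 5), whereas let-7a-5p was close in both (7.51% and 6.85%).

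**Figure D4:**
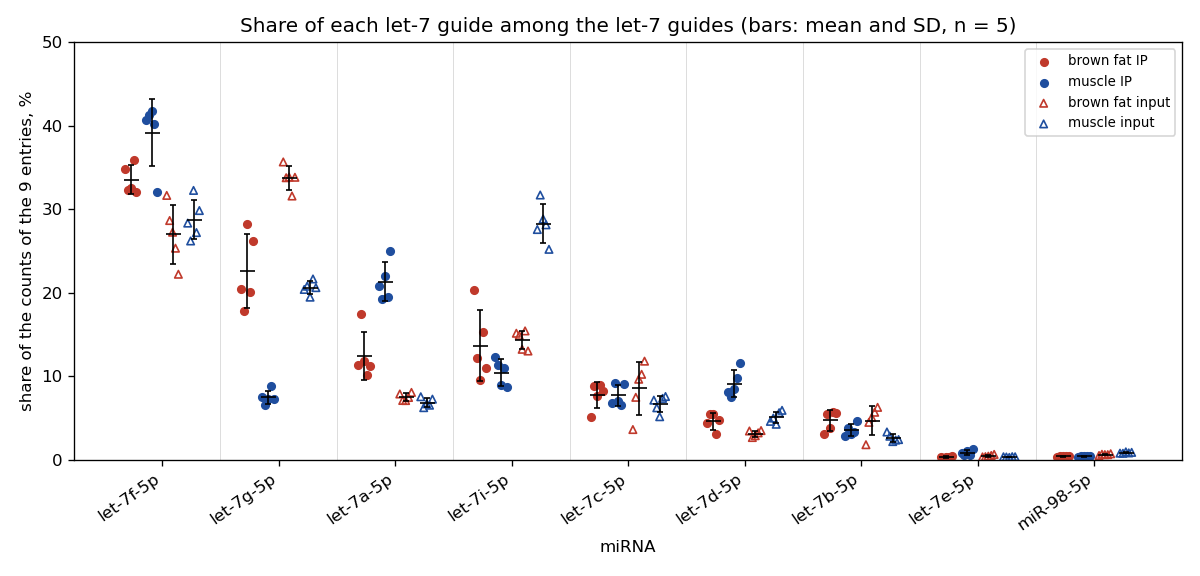
Share of each of the 9 let-7 guides in the summed let-7 counts of a library, in percent, for IP (filled) and input (open) libraries of brown fat (red) and muscle (blue); bars are mean and SD, n = 5. let-7g-5p is at 17.8% to 28.3% in the brown fat IPs and 6.59% to 8.77% in the muscle IPs, and let-7a-5p lies the other way.

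The markers of other cell types were read the same way. Both tested endothelial entries, which share reads, were higher in brown fat: miR-126a-3p, a vessel miRNA, was at 1474 to 2891 CPM against 67.6 to 491 CPM (log2 fold change 1.32, SE 0.34), and that list took 0.31% to 0.606% of counts in brown fat and 0.0143% to 0.1% in muscle. Of the leukocyte list 2 members were tested and miR-150-5p, of mature lymphocytes, was higher (1.26, SE 0.44), while miR-142a-3p was at a mean of 1.33 CPM in brown fat and at 0 in muscle. The TMM call for miR-150-5p was lost in 3 of the fits with a library left out (adjusted p up to 0.0575 by edgeR). The stromal list had 1 of 5 tested members lower with TMM and 4 higher with total count, the latter near the 79% of all tested miRNAs, and its leading member miR-143-3p was not called with TMM (0.34, SE 0.34) at 14163 to 39091 CPM against 3464 to 4930 CPM. With TMM 2 of 5 tested members of the brain list, miR-7a-5p and miR-129-5p, were higher, near the 37% of all tested miRNAs. miR-129-5p had 160, 14, 31, 14 and 96 counts in the brown fat IPs and 0, 1, 0, 0 and 0 in the muscle IPs. That is a ratio of 71.7 on the TMM scale (exact 95% interval 12.8 to 2839). The miR-7a-5p call was lost in 5 of the fits with a library left out (adjusted p up to 0.19 by edgeR). With TMM, miR-128-3p of the same list was lower (log2 fold changes of -2.26 to -1.72 as each library was left out in turn). Its unscaled levels overlapped, at 157 to 850 CPM in brown fat and 124 to 1701 CPM in muscle, and with total count it was not called (-0.17, adjusted p = 0.79 by edgeR). The entry miR-124-3p, which defines neurons, had no count in the brown fat IPs. Of the liver list 3 members were tested with TMM: miR-148a-3p and miR-192-5p were higher in brown fat, the latter by 1.80 (SE 0.43) at 95 to 526 CPM against 5.76 to 18.2 CPM, and miR-122-5p, which defines hepatocytes, was lower (-3.17). The part of these cell types in the differences was not tested.

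Other families are given by their counts. The tested miR-29 member, miR-29a-3p, known for repressing collagen genes, was higher (1.29, SE 0.32). Of the miR-17 to miR-92 group 3 of 5 were higher with TMM and none lower, beside 37% and 25.3% of all tested miRNAs. They were miR-20a-5p, with 134 counts over the brown fat IPs and 3 over the muscle IPs (a ratio of 10.2 on the TMM scale, exact 95% interval 3.4 to 49.9), miR-93-5p (2.45, SE 0.48) and miR-25-3p (1.11, SE 0.34). miR-20a-5p and miR-93-5p passed the filter through their brown fat levels, so they could hardly be called lower. Only 5 of the 28 members of this group were tested. Of the imprinted Dlk1-Dio3 cluster, whose miRNAs are made from the maternal chromosome, 50 of 110 entries had a count and 5 were tested. With TMM 4 were lower, such as miR-382-5p (-2.06, SE 0.33) and miR-541-5p (-1.21, SE 0.31), and with total count 3 were higher. By position, both tested guides of the miR-206 and miR-133b locus were lower, and both of the miR-182 and miR-183 locus were higher. At the Nfyc locus miR-30e-5p and miR-30e-3p were higher. miR-30c-5p, also higher, has a copy there and another on chromosome 1, so its counts cannot be given to a single locus.

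The inputs show how far the same contrast exists without the pull-down. Over 160 miRNAs tested in both, the log2 fold changes of IP and input correlated across miRNAs at r = 0.846 (rho 0.667), with the same sign in 112; miRNAs are not independent replicates. Of the 60 called higher in the brown fat IP, 36 were called higher and 3 lower in the brown fat input. Of the 41 called lower, 27 were called lower and 4 higher. Over all 364 miRNAs tested in the inputs, 107 were called higher in brown fat and 87 lower with TMM. With total count 329 were called higher and 10 lower. All other contrasts, signs and calls of IP and input in this paragraph are with TMM alone. Of the largest contrasts, miR-196a-5p (-11.66 in the IP and -11.67 in the input), miR-1a-3p (-3.89 and -4.17), miR-203-3p (5.61 and 4.57) and miR-183-5p (4.02 and 3.61) were about as wide in the inputs.

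The difference of differences, the IP contrast minus the input contrast over 20 libraries, was called above zero for 41 of 324 miRNAs (12.7%) and below zero for 27 (8.33%) by edgeR's quasi-likelihood test. miR-30e-5p had a difference of 3.82 (SE 0.56, adjusted p = 4.03e-05): its input contrast was 0.91 and its IP contrast 4.74. miR-30a-5p had 2.83 (SE 0.39) and miR-30c-5p 1.88 (SE 0.39). The input contrast of miR-30a-5p was -0.54 with TMM and 1.68 with total count, so its direction turned with the scaling. miR-378a-3p had 1.92 (SE 0.41) and miR-378a-5p 2.37 (SE 0.54): in the inputs miR-378a-3p was at 93617 to 131344 CPM in brown fat and 14672 to 19021 CPM in muscle. miR-148a-3p had 1.48 (SE 0.41). Below zero were let-7e-5p (-2.74, SE 0.40), let-7a-5p (-2.06, SE 0.42), let-7b-3p (-1.99, SE 0.37), miR-423-5p (-1.90, SE 0.43), miR-125a-5p (-1.53, SE 0.42), miR-486a-5p (-1.51, SE 0.46) and let-7d-5p (-1.39, SE 0.39). With single libraries left out, the edgeR calls for miR-486a-5p and let-7d-5p were each lost in 7 fits (adjusted p up to 0.068 and 0.071). Of the 12 tested miR-30 entries 5 were above and 1 below zero, and of the 9 let-7 guides 6 were below and none above. The type of library and the pool cannot be told apart in these values. IP and input share mice in 9 pairs, and with mouse and tissue as a block, a fit added after the data were seen, 45 miRNAs were called above zero and 28 below, of which 35 and 26 were also called without the block. The number below zero fell to between 12 and 17 when any of 8 single libraries was left out: muscle IP 1 or 2, brown fat IP 4 or 5, brown fat input 1, or muscle input 2, 4 or 5.

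**Figure D5:**
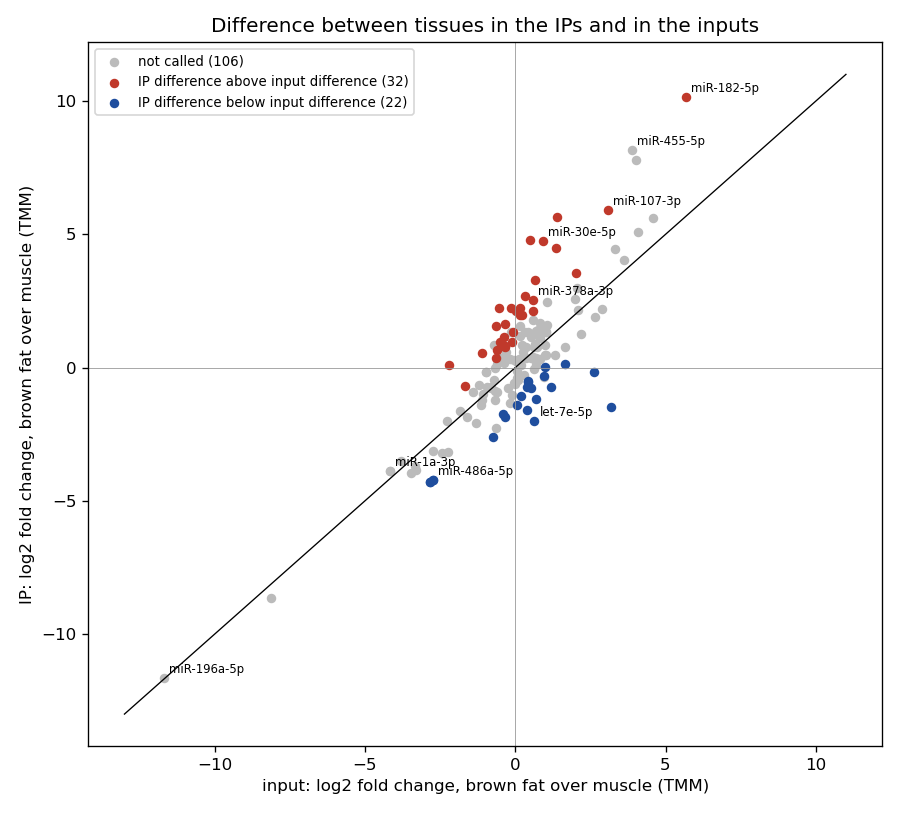
Log2 fold change of brown fat over muscle in the IPs (y axis) against that in the inputs (x axis), both TMM, for the 160 miRNAs tested in both; the line marks equal change. The 32 red and 22 blue miRNAs were called above and below the input contrast, with miR-30e-5p and miR-107-3p above and let-7e-5p and miR-486a-5p below.

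Since 4TU enters RNA in place of uracil, the uridine content of the mature sequences was set beside the calls. It could be read for 139 of the 162 tested miRNAs. Its median was 27.3% in the 55 of these that were higher in brown fat with both scalings, 33.3% in the 6 that were lower with both and 29.2% in all 139. Across these miRNAs the rank correlation of uridine percent was -0.258 with the IP fold change and -0.14 with the difference of differences, values that share the same 10 or 20 libraries and are a description only. let-7a-5p and let-7g-5p, which went opposite ways in share, both hold 9 uridines.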

How the data were processed

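The values as deposited by the authors are expected counts, which need not be whole, for 1894 mature miRNAs (18.9% of positive values were whole within 0.001). The submitters' processing notes name fastp, STAR, featureCounts and mm10. Tool versions, the miRNA annotation and the splitting of reads that match several entries were not given in the sources used here. Counts were rounded to whole numbers (library totals changed by at most 0.127%). Of 646 entries with a count in the 10 IP libraries, 162 passed filterByExpr and were tested in R 4.3.3 by edgeR 4.0.16 (glmQLFit and glmQLFTest, TMM, two-sided, Benjamini-Hochberg adjusted p under 0.05). SE is the log2 fold change divided by the square root of F. Alternatives used limma 3.58.1 and DESeq2 1.42.0. Shares of let-7 guides and log2 arm ratios (pseudocount 0.5), added after the data were seen, were tested by exact permutation in SciPy. The scripts were tested on simulated data. Per the labels, IP and input come from the same mouse and tissue in 9 pairs; their deviations from the group means correlated at 0.0356 to 0.453, over 0.1 in 8 of the 9.

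The members and lists were chosen with earlier results of these data known, and lists are described by counts and medians only. Named miRNAs are the 10 largest changes in each direction at 100 CPM or more on average, the 8 most abundant in each IP group, up to 4 members of each list, and the 6 largest differences of differences in each direction at the same level, not all printed. Outside that rule, miR-30e-3p, miR-30c-2-3p, miR-455-5p, miR-193b-3p, miR-133b-3p, miR-196b-5p, miR-20a-5p and miR-708-5p, among others, were named after their values were seen. Entries that share reads (miR-1a-3p with miR-1b-5p, miR-126a with miR-126b, the miR-486 entries, miR-30e-3p with miR-30f, let-7a-1-3p with let-7c-2-3p, and others) cannot be told apart. For a group with no count the fold is a bound at 3 counts over the group, and for 1 to 3 counts the ratio carries an exact 95% interval; PCR reads without molecular identifiers are not independent molecules, so both cover counting error only. Of 35 miRNAs looked up, 28 had a mature sequence in the RefSeq table used.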

Additional observations from a re-analysis of the deposited data

Results flagged for a closer look

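Chance alone would mark about 1 in 20 groups of 5 by the rule for a library far from the others, and 15 of 110 groups of values were marked. Muscle IP library 5, the shallowest, was the one apart in 10 of them. It was low for miR-1a-3p (453425 CPM, next 571842) and miR-1b-5p, which shares its reads (151145 CPM, next 190616). It was high for let-7a-5p (66199 CPM, next 37080), let-7d-5p (30562 CPM, next 14538), let-7e-5p (3447 CPM, next 1527), miR-486b-5p (8195 CPM, next 3224), miR-486a-5p (6567 CPM, next 2548), miR-25-3p (609 CPM, next 235), miR-541-5p (373 CPM, next 221) and miR-30e-5p (45.5 CPM, next 11.5). Brown fat IP library 2 was high for miR-10a-5p (13188 CPM, next 5983) and miR-10b-5p (5610 CPM, next 2281). The other 3 marks are single counts in a muscle IP where the other libraries had none: miR-129-5p in library 2 (1.38 CPM), miR-210-3p in library 3 (2.88 CPM) and miR-30b-5p in library 4 (2.86 CPM). Without muscle IP library 5 and brown fat IP library 2, 52 miRNAs were called higher and 39 lower in the brown fat IP.

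The contrast between the tissues differed between IP and input by the interaction test of edgeR for 17 printed miRNAs. Above zero on the log2 scale were miR-30e-5p (3.82, adjusted p = 4.03e-05), miR-30a-5p (2.83, adjusted p = 4.03e-05), miR-378a-5p (2.37), miR-378a-3p (1.92), miR-30c-5p (1.88) and miR-148a-3p (1.48). Also above zero were miR-182-5p (6.96, adjusted p = 0.04997), miR-30b-5p (4.42), miR-210-3p (3.30) and miR-107-3p (2.79), whose muscle IPs held at most 2 counts in all, so that these fitted values depend on the prior count and are no bound. Below zero were let-7e-5p (-2.74), let-7a-5p (-2.06), let-7b-3p (-1.99), miR-423-5p (-1.90), miR-125a-5p (-1.53), miR-486a-5p (-1.51) and let-7d-5p (-1.39). With single libraries left out, the calls for miR-486a-5p and let-7d-5p were lost in 7 fits each and that for miR-182-5p in 3.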

How the results depend on the processing

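The call counts moved most with the scaling. With total count 128 miRNAs were higher and 13 lower, against 60 and 41 with TMM. A test against a 2-fold minimum gave 30 higher and 25 lower, and a fit over all 20 IP libraries gave 23 lower. Other alternatives (RLE scaling, TMM without the myomiRs, both filters, DESeq2, limma-voom, all 40 libraries, entries with shared reads counted once) stayed within 1.5 times of the main counts. Leaving out each library gave 52 to 66 higher and 35 to 46 lower. The difference of differences gave 41 above and 27 below zero, 14 and 6 with all 40 libraries, 10 and 6 with a 2-fold minimum, 8 below with no filter and 52 below with limma-voom; leave-one-out fits gave 32 to 55 above and 12 to 25 below. The cause was not tested. Of the miRNAs whose IP fold change is printed, 8 turned direction with total count: let-7f-5p (1.17), let-7a-5p (0.58), let-7d-5p (0.38), miR-30a-3p (1.18), miR-30c-2-3p (1.22), miR-541-5p (1.02), miR-382-5p (0.22) and miR-423-5p (0.97). No let-7 share or arm ratio that was called turned direction under the alternatives run.

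Between brown fat and muscle IPs, equal replicate numbers do not name a shared mouse, and deviations from the group means of same-numbered libraries correlated at -0.24 to 0.171, over 0.1 in 1 of 5 numbers. With the replicate number as a block, 54 miRNAs were higher and 34 lower, and 42 and 29 differences of differences were above and below zero; 1 of 5 brown fat IPs correlated best with its own number. Blocking by the mouse that IP and input share gave 45 and 28 differences of differences and changed no call among the 17 printed ones. Where miRNAs were near absent from the muscle IPs (3 tested miRNAs higher in brown fat had no count there and 4 had 1), the counts allow only bounds or wide intervals.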
